A study of Mus musculus with 2 samples.

Results

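The unfolded protein response and the integrated stress response were followed through 10 of their genes, Atf4, Atf6, Xbp1, Ern1, Eif2ak3, Ddit3, Trib3, Asns, Herpud1 and Creb3l3. The genes were taken by symbol from the 43280 gene symbols counted in the series, and all 10 were found in both libraries. They cover the sensors, the transcription factors and some target genes of the responses, and leave out the chaperones. RNA-seq compared 1 library of small hepatocytes (SHs), which are small hepatocyte progenitors of the healthy adult liver, with 1 library of mature hepatocytes (MHs). Per the labels, both were freshly isolated by collagenase perfusion from the same C57BL6 mice of 20 weeks, whereas the methods of the study give a younger age range for its mice and name 3 mice as the source of the cells. Dead cells were taken out of MHs and SHs with Percoll, and no sort is stated for MHs. SHs were then sorted by FACS for ICAM-1 and against CD31, CD45 and EpCAM (CD31-CD45-EpCAM-ICAM-1+). The labels name no altered gene and no agent for either group. The sources do not state whether RNA of the 3 mice was pooled. Neither condition had a replicate, so the values compare these 2 libraries and carry no test.

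Counted reads came to 16979136 for MHs and 42356444 for SHs, whose library was thus 2.49 times as deep. A level is given as reads per 1000000 counted reads (RPM), and a difference as the log2 ratio of SHs over MHs with its 95% interval. Intervals cover counting error only, since each condition had 1 library. The reads carried no molecular identifiers, so copies of 1 molecule were counted as separate reads. The intervals may thus be too narrow even for counting error. Among the 10 hepatocyte markers examined, which include Alb and Hnf4a, log2 ratios lay between -0.25 and 0.16, and they summed to 86118 RPM in MHs and 88898 RPM in SHs. The markers of other liver cells stood apart between the libraries. Summed over 10 genes each, endothelial markers were at 99.4 RPM in MHs and 4.98 in SHs, macrophage and leukocyte markers at 18.3 and 1.04, and stellate cell markers at 21.3 and 2.10. At 10 reads or more, all 10 endothelial, 8 of 9 macrophage and all 8 stellate markers were at least 2-fold lower in SHs. The intervals of these markers lay below 0, and 4.46% of all genes were lower by the same rule. Lyve1 and Colec11 had 0 reads in SHs, as did Marco, which had only 3 in MHs. Cholangiocyte markers were at 21.4 RPM in MHs and 24.5 in SHs, and their defining genes Epcam, Krt19 and Krt7 had 1 to 6 reads in MHs and 1 each in SHs. In such bulk RNA, fewer cells of a type and less RNA per cell cannot be told apart. Pericentral hepatocyte markers were also lower in SHs, with a median log2 ratio of -1.83 over 12 genes, and the 12 periportal markers were higher, with a median of 0.37.

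The endoplasmic reticulum (ER) of a hepatocyte folds the plasma proteins that the liver secretes. When unfolded proteins build up there, the membrane sensors IRE1 (encoded by Ern1), PERK (encoded by Eif2ak3) and ATF6 start the unfolded protein response. IRE1 cuts an intron out of the Xbp1 mRNA, ATF6 is cut by proteases in the Golgi, and PERK phosphorylates the translation factor eIF2. Phosphorylated eIF2 is shared with the integrated stress response, in which other kinases sense lack of amino acids, lack of heme or double-stranded RNA, and it favors translation of Atf4. Much of this control lies in splicing, cleavage, phosphorylation and translation, which counts of reads per gene do not record.

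The Xbp1 transcript shows this limit. The intron that IRE1 removes is only 26 bases long, lies within exon 4 of 5 and shifts the reading frame when it is lost. It is shown because reads with and without it fall on the same gene symbol and were counted together. The stretch below is chr11:5524254-5524329 of the plus strand in mm10, from the GENCODE M21 transcript, and the capitals mark the intron (chr11:5524279-5524304).
Xbp1: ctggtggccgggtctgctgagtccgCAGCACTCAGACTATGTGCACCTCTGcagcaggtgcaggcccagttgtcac

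Promoter windows, from 250 bases before to 50 bases after the RefSeq start in GRCm38.p6, were found for 9 of the 10 genes. These were searched on both strands for TGATGNAA, the core letters of the element that ATF4 binds with C/EBP proteins, and for 2 ER stress elements, ERSE (CCAAT and CCACG with 9 bases of any kind between them) and ERSE-II (ATTGG and CCACG with 1 base of any kind between them), and for TGACGTGG, an element that ATF6 and XBP1 bind. TGATGNAA was found near the starts of Asns, Trib3 and Herpud1, and 3.97% of all 32851 promoter windows held it. ERSE-II was found in Herpud1, and 0.0365% of all windows held it. The other motifs matched in none of the 9 genes' windows, and were held by 0.119% (ERSE) and 0.676% (TGACGTGG) of all windows. A match is a description of letters and does not show that a factor binds there. The windows of the 3 genes are shown because Asns and Trib3 share a motif and had ratios on opposite sides of 0. The capitals mark the matches, and TTACATCA and TTGCATCA are TGATGNAA on the other strand. The Asns stretch is chr6:7693185-7693272 (minus strand), with its match 23 to 16 bases before the start. That of Trib3 is chr2:152344011-152344086 (minus strand), with its match 14 to 21 bases after the start. That of Herpud1 is chr8:94386277-94386427 (plus strand), with matches 112 to 105 and 52 to 42 bases before the start. These distances are from the RefSeq starts, whereas the gene positions given further below are from GENCODE. By the GENCODE positions, the Trib3 match lies before the gene and the Asns match within it.
Asns: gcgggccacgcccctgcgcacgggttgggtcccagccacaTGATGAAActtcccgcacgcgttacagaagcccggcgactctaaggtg
Trib3: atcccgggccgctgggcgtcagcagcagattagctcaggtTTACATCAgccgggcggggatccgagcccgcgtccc
Herpud1: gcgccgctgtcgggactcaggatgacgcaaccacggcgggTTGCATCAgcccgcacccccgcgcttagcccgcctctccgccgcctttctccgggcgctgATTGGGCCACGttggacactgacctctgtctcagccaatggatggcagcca

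Asns and Ddit3 were lower in SHs, Trib3 was higher by less than 1.5-fold, and the log2 ratios of the other 7 genes lay between -0.18 and 0.10. A gene was called lower or higher where it differed by at least 1.5-fold and its interval lay wholly on that side of 0. By this rule 2 of the 10 genes were called lower and 0 higher. Among all 15521 genes for which the libraries held 10 reads or more in sum, 6.2% were called lower and 3.5% higher. These shares depended on depth: among the 5055 genes with 1000 reads or more 1.68% were called lower and 0.87% higher. At a fold of at least 2, only Asns was called, beside 4.46% of all genes called lower. The median log2 ratio of the 10 genes was -0.02, and that of all 15521 genes was 0.02. All 10 genes together took 1308 RPM in MHs against 1270 in SHs, for which the log2 ratio was -0.04 (-0.07 to -0.02). By the interval alone, 5 of the 10 genes lay below 0 and 2 above it, beside 15.5% and 16.8% of all genes. Of the 7 genes with 1000 reads or more, 3 lay below 0 and 1 above it, beside 21.1% and 31.2% of all genes of that depth. Herpud1 made up 47.1% of these reads in MHs and 46.6% in SHs, and without it the summed ratio was -0.03 (-0.06 to 0.00214).

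**Figure D1:**
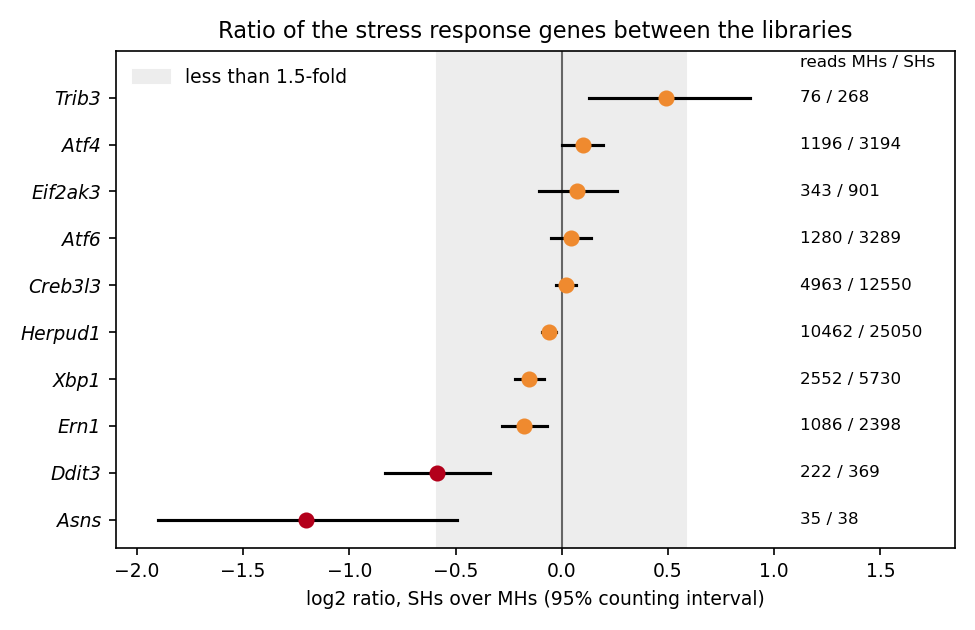
Log2 ratio of SHs over MHs (x axis) for each of the 10 genes, with 95% counting intervals as lines and the reads of both libraries at the right; the grey band marks differences of less than 1.5-fold. Asns and Ddit3 (red) lie to the left of the band, at -1.20 and -0.59, and Trib3 lies highest, at 0.49.

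The 3 sensors had similar levels in both libraries. Ern1 (chromosome 11, 106394650 to 106487852 of mm10) was covered by 1086 reads in MHs and by 2398 in SHs. These reads were 64.0 and 56.6 RPM, a log2 ratio of -0.18 (-0.28 to -0.07), so Ern1 was 1.13-fold lower in SHs. Eif2ak3 (chromosome 6, 70844515 to 70905245) was covered by 343 reads in MHs and by 901 in SHs, or 20.2 and 21.3 RPM. The interval of its log2 ratio of 0.07, -0.11 to 0.26, included 0. An intron of Eif2ak3 holds a snoRNA gene counted under its own symbol, with 567 reads in MHs and 1564 in SHs. The exons of Eif2ak3 also share 485 bases with Gm43292, a gene on the opposite strand that was not among the counted symbols. Reads of Gm43292 may have been counted for Eif2ak3 if strand was not used in counting. Atf6 (chromosome 1, 170704674 to 170867771) had 1280 and 3289 reads, or 75.4 and 77.7 RPM, and its interval of -0.05 to 0.14 included 0. The log2 ratio of Atf6 exceeded that of Ern1 by 0.22 (0.08 to 0.36) and that of Eif2ak3 exceeded it by 0.25 (0.04 to 0.46), differences that do not depend on how the libraries were scaled. With the reads of SHs thinned to equal depth, the log2 ratios were -0.12 for Ern1, -0.02 for Eif2ak3 and 0.07 for Atf6, and the intervals of all 3 included 0.

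Downstream of IRE1, Xbp1, which encodes a transcription factor of secretory pathway genes (chromosome 11, 5520659 to 5525893), was covered by 2552 reads in MHs and by 5730 in SHs. Its level was 150.3 RPM in MHs against 135.3 in SHs, and its log2 ratio was -0.15 (-0.22 to -0.08). Xbp1 and Ern1 could not be separated by their ratios, whose difference was -0.02 (-0.15 to 0.10) for Ern1 against Xbp1. The reads do not tell how much of the Xbp1 RNA had lost the intron shown above.

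The transcripts downstream of PERK differed from each other in their ratios. Atf4, whose protein activates genes of amino acid supply (chromosome 15, 80255184 to 80257541), was covered by 1196 reads in MHs and by 3194 in SHs. These were 70.4 and 75.4 RPM, and the interval of the log2 ratio of 0.10, 0.00201 to 0.20, lay just above 0. After thinning, the interval of Atf4 included 0. Ddit3 encodes CHOP, a C/EBP family factor linked to cell death under lasting ER stress (chromosome 10, 127290774 to 127296288). It was covered by 222 reads in MHs and by 369 in SHs, or 13.1 and 8.71 RPM, a log2 ratio of -0.59 (-0.83 to -0.34). Ddit3 thus reached the 1.5-fold difference of the call only narrowly. Scaling by TMM, by the size factors of DESeq2 or by totals that leave out the 10 top genes by reads put it at -0.58, -0.58 and -0.56, short of a 1.5-fold difference, with the interval still below 0. Among genes with at least 100 and under 1000 reads, as Ddit3 had, 4.25% were called lower and 3.87% higher. The exons of Ddit3 overlap those of Mars, a tRNA synthetase gene on the opposite strand, by 68 bases, and Mars had a log2 ratio of 0.11, with 1077 reads in MHs and 2893 in SHs. Whether strand was used in counting is not given in the sources used here.

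Trib3 encodes a pseudokinase that is induced by ATF4 and CHOP and restrains them (chromosome 2, 152337422 to 152344032). It was covered by 76 reads in MHs and by 268 in SHs, or 4.48 and 6.33 RPM. Its log2 ratio of 0.49 (0.13 to 0.89) was the highest of the 10 genes and fell short of a 1.5-fold difference. Asns encodes asparagine synthetase, which makes asparagine from aspartate and glutamine and is a known ATF4 target (chromosome 6, 7675169 to 7693254). It was covered by 35 reads in MHs and by 38 in SHs, or 2.06 and 0.897 RPM. The deeper library thus held hardly more reads of it. Asns was 2.30-fold lower in SHs. The interval of its log2 ratio of -1.20 was wide, -1.90 to -0.50. Among genes with 10 to 99 reads, as Asns had, 13.7% were called lower and 5.92% higher. Both levels of Asns lay above the 3 reads taken as the floor, which were 0.177 RPM in MHs and 0.0708 in SHs. The parts of the endothelial, macrophage, stellate and pericentral markers in the ratios of Asns and Ddit3 were not tested.

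Among the ATF4 targets Ddit3, Trib3 and Asns, which had the fewest reads of the 10 genes, Trib3 thus stood apart by more than counting error. Trib3 exceeded Ddit3 by 1.09 (0.65 to 1.52) and Asns by 1.70 (0.94 to 2.46) in log2 ratio, whereas the difference between Ddit3 and Asns, 0.61 (-0.09 to 1.32), included 0. The log2 ratio minus that of Atf4 itself was -0.68 (-0.94 to -0.43) for Ddit3, -1.30 (-1.97 to -0.63) for Asns and 0.40 (0.02 to 0.78) for Trib3. For Herpud1, with far more reads, this difference was -0.16 (-0.26 to -0.06). Asns, Trib3 and Herpud1 all hold TGATGNAA near the start in the windows printed above. No match lies in the window of Ddit3, and bases outside the windows were not searched. Over all 254 tested genes with this motif in a window, the median log2 ratio was -0.000409. Of these, 7.87% were called lower and 3.54% higher, beside 6.2% and 3.5% of all genes.

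Herpud1 and Creb3l3, the most abundant of the 10, hardly differed. Herpud1, which encodes an ER membrane protein that helps to remove misfolded proteins and is a known target of several branches (chromosome 8, 94386438 to 94395377), was covered by 10462 reads in MHs and by 25050 in SHs. Its level was 616 RPM in MHs against 591 in SHs, and its log2 ratio was -0.06 (-0.09 to -0.03). With totals that leave out the 10 top genes by reads, the interval of Herpud1, -0.06 to 0.01, included 0. Creb3l3 encodes CREBH, an ER-bound factor of the liver and gut that is cut like ATF6 and activates genes of lipid metabolism and the acute phase (chromosome 10, 81084324 to 81098874). It had 4963 and 12550 reads, or 292 and 296 RPM, and its log2 ratio was 0.02 (-0.03 to 0.07). Under the totals that leave out the top genes, the ratio of Creb3l3 was 0.05 and its interval, 0.00358 to 0.10, lay above 0.

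**Figure D2:**
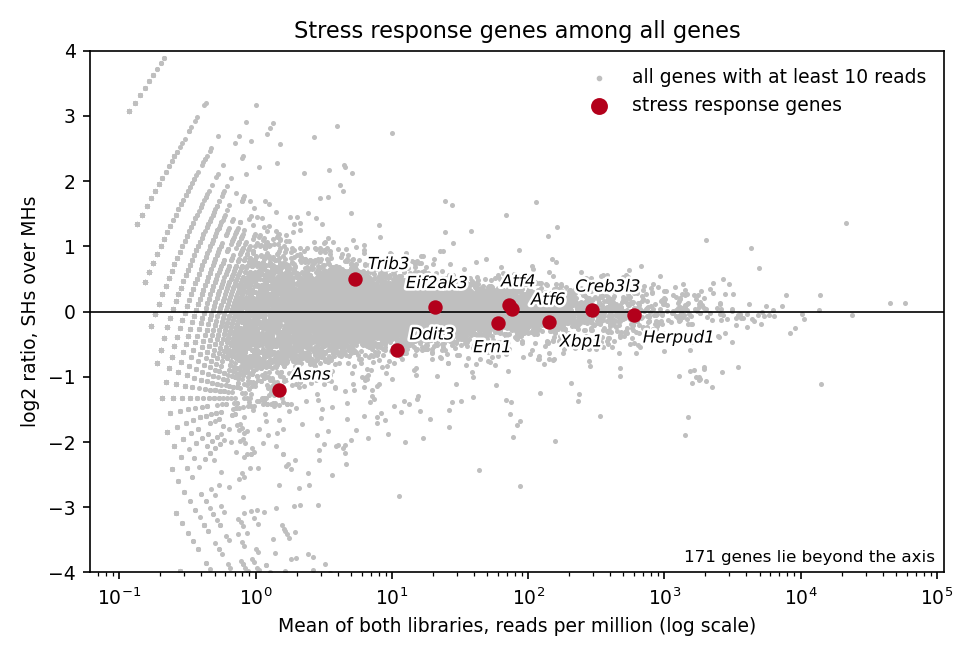
Log2 ratio of SHs over MHs (y axis) against the mean of both libraries in RPM (x axis, log scale) for the 15521 genes with at least 10 reads (grey) and the 10 stress response genes (red); 171 genes lie beyond the range of the y axis. The spread of all genes widens at low levels, where Asns, Trib3 and Ddit3 lie, and the 7 genes with more reads lie close to 0.

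In the order of the log2 ratios, Asns came lowest, followed by Ddit3, Ern1, Xbp1, Herpud1, Creb3l3, Atf6, Eif2ak3, Atf4 and Trib3. Of the 9 pairs of neighbours in this order, 5 could not be separated, since the interval of their difference included 0. The steps larger than counting error were those from Ddit3 up to Ern1, 0.41 (0.15 to 0.67), from Xbp1 to Herpud1, 0.09 (0.02 to 0.17), from Herpud1 to Creb3l3, 0.08 (0.02 to 0.14), and from Atf4 to Trib3.

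Levels were compared between genes after division by exon length, as reads per kilobase of merged exons and 1000000 counted reads (RPKM). Herpud1 had the highest level, 264 RPKM in MHs and 253 in SHs, higher than 97.5% of the tested genes with a known length in either library. Creb3l3 followed with 96.9 RPKM in MHs and 98.2 in SHs, then Xbp1 with 46.3 and 41.7, and Atf4 with 29.9 and 32.0. Among the sensors, Atf6 had 8.17 RPKM in MHs and 8.41 in SHs, Ern1 7.83 and 6.93, and Eif2ak3 3.35 and 3.53. Ddit3 had 7.63 and 5.09 RPKM. In MHs, Ddit3, Ern1 and Atf6 could not be ordered beyond counting error, and in SHs all neighbours in the order could. This order rests on the length used: divided by the longest transcript, Ddit3 was at 13.5 RPKM in MHs, above Atf6 at 10.4, and at 8.99 RPKM in SHs, above Ern1 at 8.15. Trib3 had 2.11 RPKM in MHs and 2.98 in SHs. Asns stood last in both libraries, with 0.754 RPKM in MHs and 0.328 in SHs, and 27.9% of genes lay below it in MHs and 17.3% in SHs. Trib3 was 2.79 times the level of Asns per length in MHs (95% interval 1.87 to 4.17) and 9.08 times in SHs (6.46 to 12.7).

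**Figure D3:**
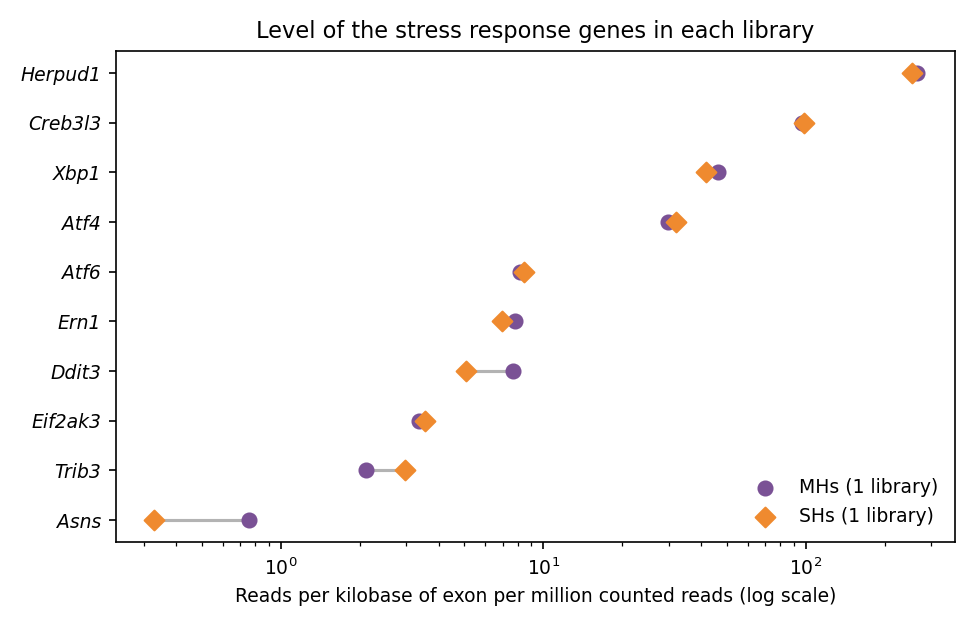
Level of each gene in RPKM (x axis, log scale) in the library of MHs (circles) and that of SHs (diamonds), 1 library each. Herpud1 lies at 264 and 253 RPKM and Asns at 0.754 and 0.328, and with lengths of merged exons the order of the 10 genes is the same in both libraries, which changes for Ddit3 with the longest transcript.

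Gene lists of the same pathways were described by their counts and medians. Over 108 tested genes of 8 such lists, the median log2 ratio was 0.03, and 5 genes were called lower and 1 higher, or 4.63% and 0.926%, against 6.2% and 3.5% of all genes. Among the relatives of the sensors and factors, the other eIF2 kinases and the ATF6 proteases, 8 of 10 genes had enough reads, with a median of 0.04. Only Mbtps2, which encodes the site-2 protease that releases ATF6 and CREB3L3, was called, with 88 reads in MHs and 143 in SHs and a log2 ratio of -0.62 (-1.01 to -0.22). Mbtps1, which encodes the site-1 protease, had -0.06 (-0.18 to 0.06). Creb3, a relative of Creb3l3, had -0.42 (-0.55 to -0.28) and did not reach the fold. The intervals of Atf6b, a relative of Atf6, of Eif2ak4, which encodes the amino acid sensor GCN2, and of Eif2ak2, which encodes the double-stranded RNA sensor PKR, included 0, with ratios of 0.09, 0.16 and 0.21.

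None of the 12 genes of eIF2, its exchange factor eIF2B and its phosphatase, together with Dnajc3 and Nck1, was called. Each of the 12 had at least 100 reads. Of all genes with 1000 reads or more, 1.68% were called lower and 0.87% higher. Of those with at least 100 and under 1000 reads, 4.25% were called lower and 3.87% higher. At such shares, the absence of calls among 12 genes does not set this list apart from other genes. The median of the 12 genes was 0.08. Eif2s1, which encodes the phosphorylated alpha subunit of eIF2, had a log2 ratio of 0.27 (0.09 to 0.46), and Eif2b2 had 0.18 (-0.06 to 0.43). At the other end were Dnajc3, an inhibitor of PERK, with -0.13 (-0.18 to -0.09), and Ppp1r15a, which encodes the stress-induced phosphatase subunit GADD34, with 358 reads in MHs, 874 in SHs and -0.03 (-0.21 to 0.15).

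Of 28 further targets of ATF4 or CHOP, 22 had at least 10 reads, with a median of 0.04. Of these, 3 were called lower and 1 higher, beside 6.2% and 3.5% of all genes. The genes called lower all had 10 to 99 reads, a depth at which 13.7% of all genes were called lower, and all but Fgf21 are named here after their values were seen. Slc7a5, an amino acid transporter, was covered by 11 reads in MHs and by 9 in SHs. Vldlr, a lipoprotein receptor, had 12 in each. Fgf21, a hormone of fasting made by the liver, was covered by 26 reads in MHs and by 32 in SHs, a log2 ratio of -1.02 (-1.81 to -0.21). Bbc3, which encodes the cell death protein PUMA, was called higher, with 70 and 283 reads and a log2 ratio of 0.69 (0.31 to 1.10). Sesn2 had 0.37 (-0.12 to 0.91) and Chac1, a glutathione-cleaving enzyme, -0.11 (-0.61 to 0.43). The lowest ratios among genes with at least 100 reads were those of Psph, at -0.33 (-0.70 to 0.06), and Ero1l, an ER oxidase, at -0.32 (-0.53 to -0.10). Atf3 had 1134 and 3657 reads and a log2 ratio of 0.37 (0.27 to 0.47), and Gdf15, a stress-induced hormone, 1313 and 3616 reads and 0.14 (0.05 to 0.23). Atf3 is also an immediate-early gene that responds to cell isolation, and 14 such genes had a median of 0.10, with Fos and Klf6, named after their values were seen, called higher, beside 3.5% of all genes. For serine synthesis, Psat1 had 5 and 8 reads, and Phgdh had 0 and 1.

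The 12 tRNA synthetases that ATF4 is known to induce had a median of 0.11. None was called, beside 1.68% lower and 0.87% higher among all genes with 1000 reads or more, as each of the 12 had. The interval lay above 0 for 6 of the 12 and below 0 for 1, beside 31.2% and 21.1% of all genes of that depth. The highest were Sars at 0.34 (0.22 to 0.47) and Yars at 0.22 (0.06 to 0.38), and the lowest were Iars at -0.24 (-0.38 to -0.10) and Gars at -0.03 (-0.17 to 0.11). Of the 16 ER-associated degradation genes, which remove misfolded proteins from the ER, none was called, and the median was 0.02. Edem1, a lectin that marks misfolded glycoproteins, had -0.20 (-0.28 to -0.12) and Derl2 -0.17 (-0.27 to -0.08), whereas Herpud2, the relative of Herpud1, had 0.28 (0.04 to 0.52) and Ube2j1 0.23 (0.07 to 0.39).

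Most ER chaperones and folding enzymes had ratios slightly below 0, and none was called. Of 16 genes, 13 had a ratio under 0, the interval lay below 0 for 12 and above 0 for 2 (Sdf2l1 and Hyou1, the latter named after its values were seen), and the median was -0.11. Among all genes with 1000 reads or more, as each of the 16 had, the interval lay below 0 for 21.1% and above 0 for 31.2%. Of all genes of that depth, 1.68% were called lower and 0.87% higher. Together the 16 genes were at 7268 RPM in MHs against 6757 in SHs, for which the log2 ratio was -0.11 (-0.11 to -0.10). The endothelial, macrophage, stellate and pericentral markers were also lower in SHs, and their part in these ratios was not tested. The lowest were Hsp90b1 at -0.21 (-0.24 to -0.18) and Hspa5, which encodes BiP, the chaperone that binds the sensors, at -0.18 (-0.20 to -0.16). The highest were Sdf2l1 at 0.18 (0.02 to 0.34) and Dnajb11 at 0.07 (-0.02 to 0.16). Dnajb9, a target of spliced XBP1, had -0.10 (-0.21 to 0.01). The 18 genes of translocation and transport known as targets of spliced XBP1 had a median of -0.02, with 9 ratios on each side of 0 and none called, from -0.14 for Srpr and -0.12 for Kdelr2 to 0.21 for Sec24d and 0.26 for Sec61b.

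The 7 known targets of CREB3L3 were divided. Hamp, which encodes hepcidin, had a log2 ratio of 0.43 (0.29 to 0.57) and Apoa4, a lipoprotein component, 0.35 (0.28 to 0.42), whereas the acute-phase genes Apcs and Crp had -0.45 (-0.60 to -0.30) and -0.25 (-0.29 to -0.20). Fgf21, given above, and Cidec, a lipid droplet gene named after its values were seen, with 27 reads in each library, were called lower, beside 6.2% of all genes and 13.7% of those with 10 to 99 reads, as both had. The median was -0.25, and it was 0.27 over the genes with at least 100 reads, which leaves out Fgf21 and Cidec. Neither sign describes the list as a whole.

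**Figure D4:**
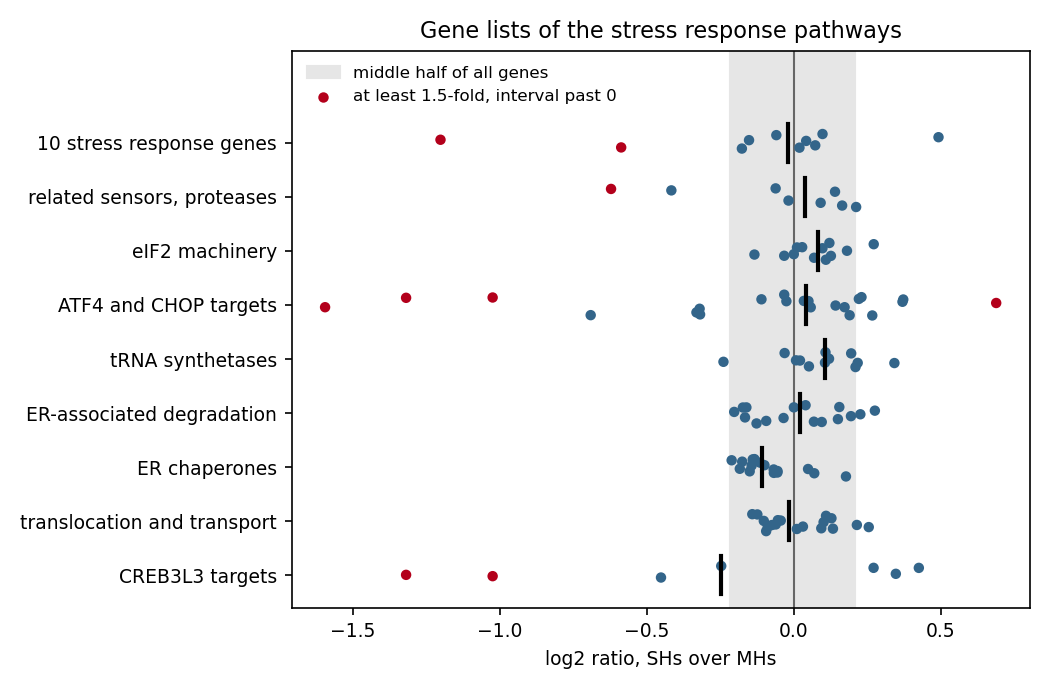
Log2 ratio of SHs over MHs (x axis) for each gene with at least 10 reads in the 10 stress response genes and in 8 related lists; black bars mark medians, red points the genes called, and the grey band the middle part of all genes, from -0.22 to 0.21. The medians lie between -0.25 and 0.11.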

How the data were processed

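The deposited values were whole read counts per gene symbol, without normalization, for 1 library of MHs and 1 of SHs. Per the methods, poly(A) RNA was sequenced on an Ion Proton system, and the authors trimmed the reads, aligned them to mm10 in CLC Genomics Workbench and expressed genes as RPKM. The program, annotation and strand setting behind the deposited counts are not given in the sources used here, so reads of paralogs and overlapping genes are uncertain.

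Counts were divided by the library total, and 0.5 reads were added for ratios. Clopper-Pearson intervals came from the share of a gene's reads in the SH library, and intervals of differences between 2 genes were Wald intervals of the log2 odds ratio. With 1 library per condition, no test was run and no p-value given. The 10 genes, the lists and the rules were chosen with earlier results of these data known. List genes were named if they had at least 100 reads and one of the 2 lowest or 2 highest ratios, or were fixed by name.

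Exon lengths and positions came from GENCODE M21, and promoters from RefSeq. Python 3.11.15, numpy 2.4.6, pandas 2.3.3, scipy 1.17.1, matplotlib 3.10.9, R 4.3.3, edgeR 4.0.16 and DESeq2 1.42.0 were used, the last 2 for scaling only. The calculation was also run on simulated counts with counting error only, which checks the code and not variation between animals.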

Additional observations from a re-analysis of the deposited data

How the results depend on the processing

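No paired analysis was possible because each condition had a single library. Other scalings were TMM, the size factors of DESeq2 and totals that leave out the 10 top genes by reads. These scalings, adding 2 reads, and thinning the SH library left all 50 recomputed log2 ratios of the 10 genes inside their intervals. The median over all genes of the shift in log2 ratio was at most 0.03 in size. The side of 0 on which the interval lay changed in 4 of the 50 ratios. These were Atf4 and Ern1 after thinning, and Herpud1 and Creb3l3 without the 10 top genes. Ddit3 lost its call under all 3 scalings, so that 1 gene was called lower under each, as at a fold of at least 2. With the interval alone as the rule, 5 genes were lower and 2 higher, beside 15.5% and 16.8% of all genes and 21.1% and 31.2% of those with at least 1000 reads, as 7 of the 10 had. The share of all genes called lower was 3.06% with at least 100 reads and, chosen after the data were seen, 1.68% with at least 1000 reads and 13.7% with 10 to 99 reads. The share called higher was 2.00% at a fold of at least 2, 2.17% with at least 1 read and, chosen after the data were seen, 0.87% with at least 1000 reads and 5.92% with 10 to 99 reads. The median of the CREB3L3 targets was 0.27 with at least 100 reads. Divided by the longest transcript instead of merged exons, levels in MHs and SHs were 34.9 and 37.3 RPKM for Atf4, 10.4 and 10.7 for Atf6, 70.6 and 63.5 for Xbp1, 9.21 and 8.15 for Ern1, 4.48 and 4.71 for Eif2ak3, 13.5 and 8.99 for Ddit3, 316 and 303 for Herpud1, and 127 and 129 for Creb3l3, which placed Ddit3 above Atf6 in MHs and above Ern1 in SHs. Depth limits Asns most, with 35 and 38 reads.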
